A study of Homo sapiens with 2 samples.

Results

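The human mitochondrial genome carries its own short set of genes, and all 37 of them had a row in the gene count tables of this RNA-seq experiment, out of 58735 rows in all. They were taken as every row placed on the mitochondrial chromosome, and they fall into 13 protein-coding genes, 2 ribosomal RNA genes and 22 transfer RNA genes. RNA came from BHT101, a human cell line of anaplastic thyroid carcinoma, grown in DMEM with 20% serum. The experiment had 2 groups of 1 library each: cells overexpressing SETDB2, a SET domain protein of the histone H3 lysine 9 methyltransferase family, and control cells of the same line. Which vector and control construct were used, how long SETDB2 was expressed and whether either culture was a clone are not stated in the labels. With 1 library per group there is no replicate and no test of the condition. Each difference below is between those 2 libraries, and each interval is an exact 95% interval that covers counting error only.

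Mitochondrial DNA is a small circle that is transcribed in both directions as long polycistronic RNAs. Transfer RNAs sit between most of the other genes, and their excision by RNase P and the RNase Z enzyme ELAC2 frees the ribosomal and messenger RNAs, most of which then receive short poly(A) tails. The proteins made from these messengers are core membrane subunits of respiratory complexes I, III and IV and of ATP synthase, complex V. All other subunits, and every protein that copies, transcribes, processes or translates the mitochondrial genome, come from the nucleus.

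The SETDB2 library held 34053348 counts and the control library 33572025. SETDB2 itself had 1370 counts in the SETDB2 library and 507 in the control library, a log2 ratio of 1.43 (1.28 to 1.58). A product of the vector and the cells' own SETDB2 transcript cannot be told apart in that row. All 6 epithelial markers examined passed the count filter described below, but at very different levels. The keratin gene KRT8 had 33986 counts in the SETDB2 library and 32748 in the control library. EPCAM had 549 and 493 in the SETDB2 and control libraries, and CDH1 had only 98 and 121. Of the 8 thyroid follicular markers only PAX8 and HHEX passed it, NKX2-1 was at 0 in both libraries, and TG had 2 counts in the SETDB2 library and 6 in the control library. PTPRC, the common leukocyte marker, had 0 and 3 counts in the SETDB2 and control libraries, and 1 of 6 leukocyte markers, CD74, passed. Of 7 fibroblast and endothelial markers 3 passed: LUM had 2126 counts in the SETDB2 library and 1567 in the control library, PDGFRA had 450 and 433, and PECAM1 had 74 and 110. The endothelial marker CDH5 had 0 in both. Ratios were taken on counts scaled with TMM factors, and genes were kept when their mean over the 2 libraries was at least 1 CPM (a count scaled by the total of its library), which left 14130 genes with a median log2 ratio of 0.003.

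Mitochondrial genes took nearly the same part of both libraries. Their counts summed to 1702363 in the SETDB2 library and 1699433 in the control library, or 5.00% (4.99 to 5.01) and 5.06% (5.05 to 5.07) of each total. The log2 ratio of the sums was -0.004 (-0.007 to -0.001). A share of bulk RNA does not tell a change in the number of cells of a kind from a change in RNA per cell. In each library 10 of the 20 rows with the most counts were mitochondrial, and MT-CO1 was the second most abundant row. Of the 37 members, 16 passed the count filter: the 13 protein-coding genes, both ribosomal RNAs and 1 transfer RNA.

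None of those 16 reached either of the size rules used here, a 2-fold difference or the smaller one of 25% above the other library, each with an interval that excluded equality. Over all genes kept, 1.8% reached 2-fold, 0.651% in the upward and 1.15% in the downward direction in the SETDB2 library. By the 25% rule 17.4% of all genes were taken, 7.36% being higher and 10% lower. These are rules of size and not tests. By counting error alone, 5 of the 16 members had an interval wholly above 0 and 6 had one wholly below, where 26.5% and 24.6% of all genes kept did. Genes with many counts pass that mark easily: of the 1400 whose counts summed to 10000 or more, 15 members among them, 48.9% were wholly above 0 and 28.3% wholly below. The log2 ratios of those 1400 genes had a robust standard deviation of 0.14, while counting intervals of the protein-coding members reached at most 0.03 to either side.

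**Figure D1:**
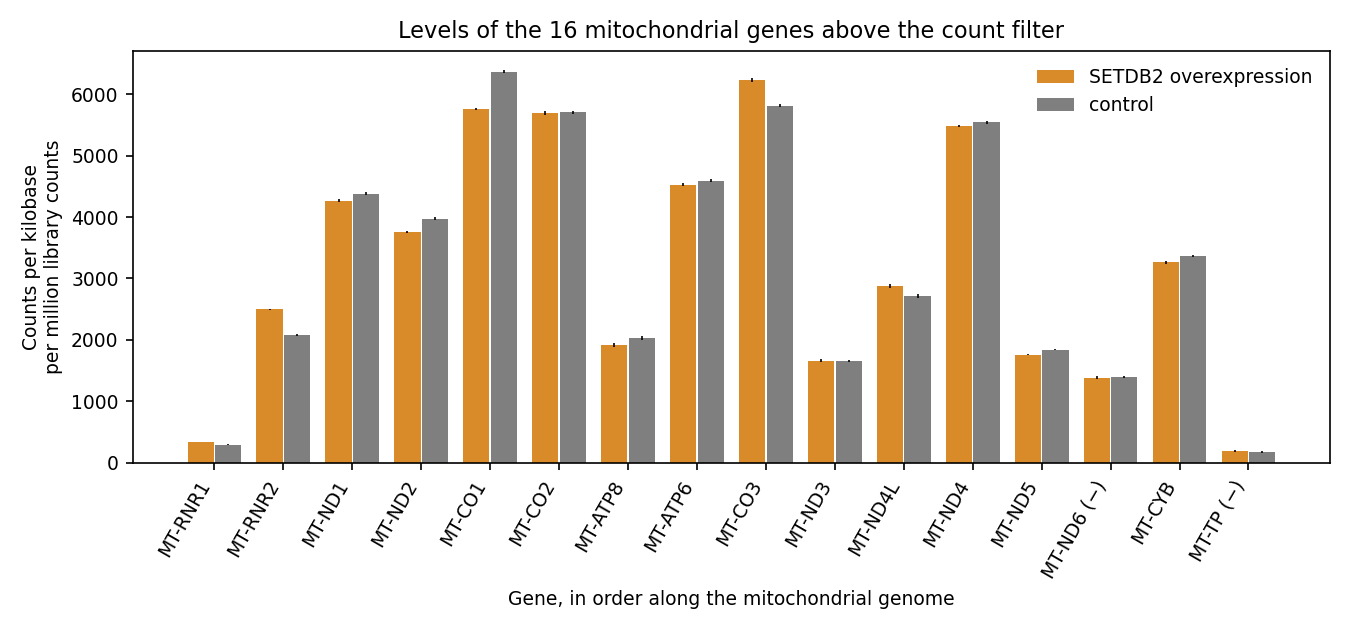
Level of each mitochondrial gene above the count filter, in CPM per kilobase of gene length, in order of position along the mitochondrial genome. Bars stand for the SETDB2 library (orange) and the control library (grey), error bars are exact 95% counting intervals, and (−) marks genes on the minus strand. MT-CO3 is highest in the SETDB2 library at 6233, MT-CO1 is highest in the control library at 6370, and MT-RNR1 and MT-TP stand lowest in both.

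The ribosomal RNAs were the class that differed most, and both were higher in the SETDB2 library. MT-RNR2, the 16S RNA of the large mitoribosomal subunit, had 132451 counts in the SETDB2 library and 108667 in the control library, a log2 ratio of 0.28 (0.27 to 0.29) or a level 21.3% higher. MT-RNR1, the 12S RNA of the small subunit, had 10933 counts in the SETDB2 library and 9354 in the control library, a log2 ratio of 0.22 (0.18 to 0.26) or 16.4% higher. Placed among the 1400 high-count genes, MT-RNR2 lay at percentile 95.9 and MT-RNR1 at percentile 90.6. Counting both directions, 8.64% of those genes had a ratio at least as large in size as that of MT-RNR2. Differences of this size thus occurred among other high-count genes too. Their spread comes from the same 2 libraries, so it cannot separate the condition from variation between cultures. The share of ribosomal RNA in mitochondrial counts was 8.42% (8.38 to 8.46) in the SETDB2 library and 6.94% (6.91 to 6.98) in the control library. The share of protein-coding genes was correspondingly 91.6% (91.5 to 91.6) and 93.0% (93.0 to 93.1).

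Both ribosomal RNAs are cut from the same precursor, yet their levels were far apart in each library. Per kilobase, MT-RNR2 stood at 2495 CPM in the SETDB2 library and 2076 in the control library, and MT-RNR1 at 337 and 292. The 16S level was thus 7.41 times the 12S level in the SETDB2 library and 7.11 times in the control library, and 16S made up 92.4% (92.2 to 92.5) and 92.1% (91.9 to 92.2) of ribosomal counts. Neither the selection of poly(A) RNA nor the removal of ribosomal RNA is stated in the labels, and the part of either step in the ribosomal levels was not tested. Of the 75-base pieces of the 16S gene 3.16% also occur in annotated nuclear transcripts, and of the 12S gene none. The base composition of the 2 ribosomal genes, 42.8% and 45.5% GC, lay within the range of the protein-coding members, 39.6% to 47.7%. Median GC content was 44.1% for the ribosomal and 44.3% for the protein-coding genes. Removing the trend of the ratio on GC content therefore took nearly the same amount from both classes. The gap between their median ratios, 0.26 before and 0.26 after, could hardly change, and the part of GC content in it was not tested.

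**Figure D2:**
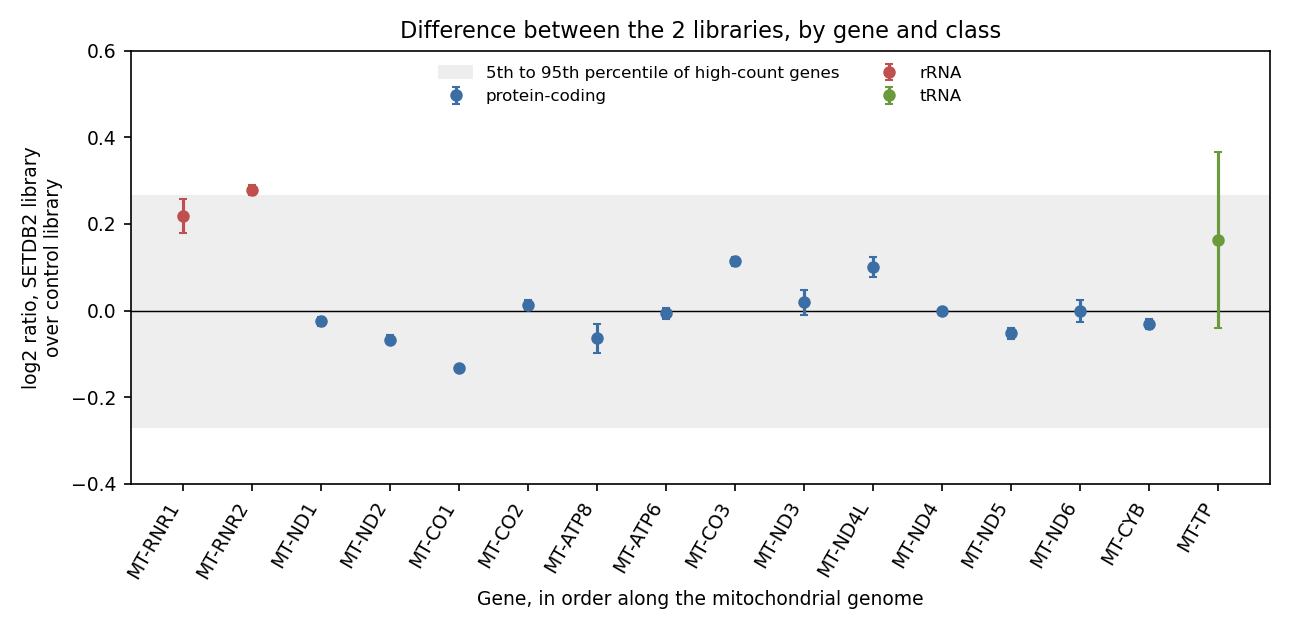
Log2 ratios, SETDB2 over control, of the 16 mitochondrial genes above the count filter, in order along the genome, with points coloured by class and exact 95% counting intervals. The grey band holds the middle of 1400 high-count genes, from -0.27 to 0.26; MT-RNR2 at 0.28 lies just above it and every protein-coding gene lies inside it.

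The 13 protein-coding genes stayed close to equality. Their median log2 ratio was -0.007, beside 0.003 over all genes kept and 0.04 over the high-count genes, and they ran from -0.13 to 0.11. By counting error alone, 3 had an interval above 0, 6 had one below 0 and 4 had one that held 0. Among the 1400 high-count genes they lay between percentiles 13.1 and 68.8.

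The 3 subunits of cytochrome c oxidase, complex IV, held both ends of that range, though with the GC trend removed MT-ATP8 and MT-CO1 were level at the lower end, both at -0.16. MT-CO1, which carries the site where oxygen is reduced, had 302382 counts in the SETDB2 library and 329767 in the control library, a log2 ratio of -0.13 (-0.14 to -0.12). MT-CO3, a core subunit beside it, had 166408 counts in the SETDB2 library and 153128 in the control library, a ratio of 0.11 (0.10 to 0.12). MT-CO2, which takes electrons from cytochrome c, had 132810 and 131024 counts in the SETDB2 and control libraries, a ratio of 0.013 (0.002 to 0.024) that turned negative, down to -0.011, under 3 of 5 alternative settings. Jointly the 3 genes made up 38.6% of protein-coding mitochondrial counts in the SETDB2 library and 38.8% in the control library.

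The 7 complex I subunits, which form the membrane arm that couples NADH oxidation to proton pumping, had 2 members above 0 and 5 below. MT-ND4L was the highest of them, with 29092 counts in the SETDB2 library and 27006 in the control library, a log2 ratio of 0.10 (0.08 to 0.12), which was 0.05 with the GC trend removed. MT-ND2 was the lowest, with 133342 counts in the SETDB2 library and 139036 in the control library, a ratio of -0.07 (-0.08 to -0.06), or -0.12 with that trend removed. MT-ND5 had 108477 and 111992 counts in the SETDB2 and control libraries, a ratio of -0.05 (-0.06 to -0.04), or -0.09 with it removed. MT-ND1 had 139004 and 140738 counts in the SETDB2 and control libraries, a ratio of -0.02 (-0.04 to -0.01), or -0.03 with the GC trend removed.

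The other complex I messengers differed least before the GC trend was removed, while MT-ND1 did after its removal. MT-ND4 had 257389 counts in the SETDB2 library and 256504 in the control library, and MT-ND6 had 24779 and 24681. Their log2 ratios were -0.002 (-0.009 to 0.006) for MT-ND4 and -0.001 (-0.026 to 0.025) for MT-ND6, and both turned positive with DESeq2 size factors, which were 1 for both libraries and so left the counts unscaled. With the GC trend removed they were -0.04 and -0.06. MT-ND3 had 19571 and 19218 counts in the SETDB2 and control libraries, a ratio of 0.02 (-0.01 to 0.05) that was -0.07 once the GC trend was removed. Complex I genes as a whole made up 45.7% of protein-coding mitochondrial counts in the SETDB2 library and 45.5% in the control library.

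MT-CYB, the cytochrome b of complex III and its sole mitochondrially encoded subunit, had 126747 counts in the SETDB2 library and 128839 in the control library, a log2 ratio of -0.03 (-0.04 to -0.02), or -0.05 with the GC trend removed. In ATP synthase, MT-ATP6, which forms part of the proton path, had 105018 and 105016 counts in the SETDB2 and control libraries, a ratio of -0.007 (-0.019 to 0.006) that was 0.00 on unscaled counts and -0.05 with the GC trend removed. MT-ATP8, a small membrane subunit of the same complex, had 13533 counts in the SETDB2 library and 14085 in the control library, a ratio of -0.06 (-0.10 to -0.03), which was -0.16 with the GC trend removed.

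Per kilobase, the protein-coding genes spread over a much wider range within each library than between them. The median level was 3758 CPM per kilobase in the SETDB2 library and 3975 in the control library. MT-CO3 led in the SETDB2 library at 6233 (6203 to 6263), ahead of MT-CO1 at 5759 (5738 to 5779), while in the control library MT-CO1 led at 6370 (6348 to 6392), ahead of MT-CO3 at 5818 (5789 to 5847). All 14 other places in the order of the 16 genes were the same in both libraries. MT-CO2, MT-ND4, MT-ATP6, MT-ND1, MT-ND2, MT-CYB and MT-ND4L followed, then the 16S RNA, then MT-ATP8, MT-ND5, MT-ND3 and MT-ND6. No 2 neighbours in either order had overlapping counting intervals, and without replicates no wider spread can be given. Both orders leave out reads counted for nuclear copies of mitochondrial genes. MTATP6P1, a copy of MT-ATP6, took 20.5% of the summed counts of the pair in the SETDB2 library and 22.0% in the control library. The place of MT-ATP6 is therefore uncertain.

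Levels did not fall steadily with distance along the heavy-strand transcript. MT-CO3, in the middle of it, was 3.75 times as high per kilobase as MT-ND3, the next messenger, in the SETDB2 library and 3.52 times in the control library. MT-ND4, further along, was back at 5485 in the SETDB2 library and 5545 in the control library, and MT-ND5, which follows it, was at 1758 and 1841. MT-CYB, the last messenger, stood at 3262 in the SETDB2 library and 3363 in the control library.

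Neighbouring genes that share 1 messenger did not have equal levels in the tables. MT-ATP8 and MT-ATP6 are translated from the same RNA, as are MT-ND4L and MT-ND4, and in each pair the reading frames overlap. The overlaps are shown to make plain which bases belong to both rows (GRCh38 mitochondrial chromosome, plus strand, sequence from GENCODE 29 transcripts, capitals marking the shared bases).
MT-ATP8 into MT-ATP6, chrM:8512-8587: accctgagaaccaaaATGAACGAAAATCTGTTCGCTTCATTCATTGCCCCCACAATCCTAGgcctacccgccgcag
MT-ND4L into MT-ND4, chrM:10730-10796: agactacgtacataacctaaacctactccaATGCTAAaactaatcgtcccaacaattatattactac
The shared stretch opens with the start codon of the downstream gene in both cases, and it is 46 bases long for MT-ATP8 and MT-ATP6 and 7 bases long for MT-ND4L and MT-ND4.

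MT-ATP6 was 2.36 times as high per kilobase as MT-ATP8 in the SETDB2 library and 2.27 times in the control library. MT-ND4 was 1.91 times as high as MT-ND4L in the SETDB2 library and 2.05 times in the control library. With the shared bases left out of both lengths, a choice made after the values were seen, the first ratio was 1.97 in the SETDB2 library and 1.89 in the control library, and the second was 1.87 and 2.01. In each pair the shorter gene had the lower level, and how reads that touch both rows were assigned is not stated. The part of that step in these ratios was not tested. Reads counted for nuclear copies were left out of these ratios. The copy MTATP6P1 took 20.5% of its pair with MT-ATP6 in the SETDB2 library and 22.0% in the control library. MTATP8P1 took 0.951% and 0.340% of its pair with MT-ATP8.

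Rows on the 2 strands of the mitochondrial genome held very unequal counts, in nearly the same proportion in both libraries. Rows on the plus strand, which are transcribed from the heavy strand, held 28 genes: 12 messengers, both ribosomal RNAs and 14 transfer RNAs. Rows on the minus strand, transcribed from the light strand, held MT-ND6 and 8 transfer RNAs. The minus-strand rows took 1.48% (1.46 to 1.50) of mitochondrial counts in the SETDB2 library and 1.47% (1.46 to 1.49) in the control library, and their summed log2 ratio was 0.002 (-0.023 to 0.027). For the plus-strand rows that ratio was -0.004 (-0.007 to -0.001). The shares are not corrected for length, and MT-ND6 has 525 bases of a summed protein-coding length of 11395. Per kilobase, MT-ND6 stood at 1386 in the SETDB2 library and 1400 in the control library, the lowest of the 13 messengers in both, and MT-ND5, its neighbour on the opposite strand, was 1.27 and 1.31 times as high. The strand setting of the counting is not stated. For MT-ND6 and for plus-strand rows alike, reads of the gene and of antisense RNA from the other strand thus cannot be told apart.

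Transfer RNA genes were almost without counts. Of the 22 rows, 20 were at 0 in both libraries, which allows up to 0.0881 CPM in the SETDB2 library and 0.0894 CPM in the control library. MT-TP, the proline transfer RNA, had 425 counts in the SETDB2 library and 378 in the control library, a log2 ratio of 0.16 (-0.04 to 0.37) that was 0.02 with the GC trend removed. MT-TF, the phenylalanine transfer RNA, had 2 in the SETDB2 library and 0 in the control library. All transfer RNA rows together made up 0.0251% (0.0228 to 0.0276) of mitochondrial counts in the SETDB2 library and 0.0222% (0.0201 to 0.0246) in the control library. The rows at 0 include MT-TL1, the leucine transfer RNA that follows the 16S gene, and MT-TT, the threonine transfer RNA that lies 2 bases from MT-TP.

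The sequences of both transfer RNAs with counts are given because they are the 2 at the edges of the annotated genome. They are written 5′ to 3′ on the gene's own strand, from GENCODE 29 transcripts on GRCh38, with the anticodon in capitals.
MT-TP, chrM:15956-16023, minus strand: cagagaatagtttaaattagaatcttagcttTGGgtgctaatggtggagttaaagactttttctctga
MT-TF, chrM:577-647, plus strand: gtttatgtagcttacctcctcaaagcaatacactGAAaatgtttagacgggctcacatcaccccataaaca
MT-TF is the first annotated row and MT-TP the last, so each borders the control region, the stretch with the promoters and no annotated gene. The other 20 transfer RNA genes lie between annotated neighbours, at most 31 bases away on the wider side, and each is between 59 and 75 bases long. Of the 22, 18 touch or overlap a neighbouring row. The part of read length and of the rule for reads that cover several rows was not tested. These rows say nothing about the abundance of mature transfer RNA, which is short and heavily modified.

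Some mitochondrial genes have near-identical copies in nuclear DNA, left by past insertions of mitochondrial sequence, and reads from one can be counted for the other. The tables held 407 nuclear rows named as such copies, of which 58 had any count and 6 passed the filter. Together they had 34175 counts in the SETDB2 library and 37873 in the control library, equal to 2.01% and 2.23% of the mitochondrial counts. Of the 37 members, 9 shared at least one 75-base piece with an annotated nuclear transcript, all of them ribosomal or protein-coding. Among the transfer RNA genes only MT-TL1, at 75 bases, is long enough to hold such a piece, so the others could not be searched. Insertions with no row in the annotation are not covered by the count of 9.

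**Figure D3:**
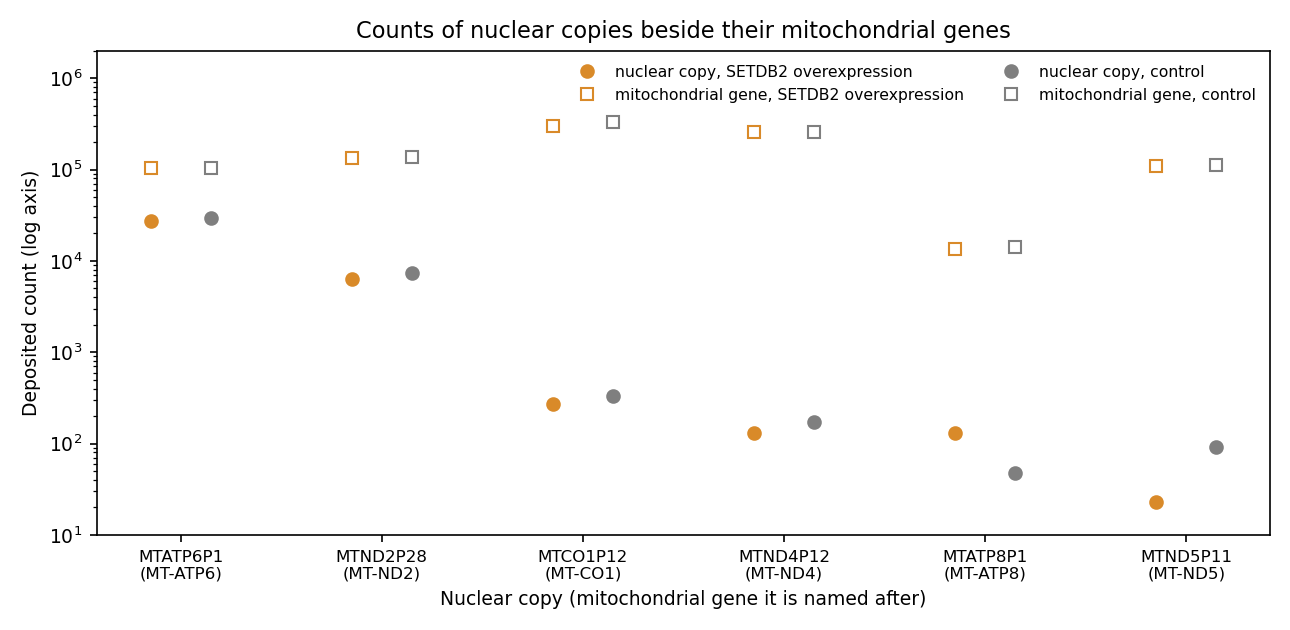
Deposited counts, on a log axis, of the 6 nuclear copies above the count filter (filled circles) and of the mitochondrial genes they are named after (open squares), in the SETDB2 library (orange) and the control library (grey). MTATP6P1 reaches 27059 and 29580 counts beside 105018 and 105016 for MT-ATP6, while MTCO1P12 has 273 and 336 beside 302382 and 329767 for MT-CO1.

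MTATP6P1, a copy of MT-ATP6 on chromosome 1 (633696 to 634376, plus strand), was by far the most counted. It had 27059 counts in the SETDB2 library and 29580 in the control library, a log2 ratio of -0.14 (-0.16 to -0.11). It took 20.5% (20.3 to 20.7) of the summed counts of the pair in the SETDB2 library and 22.0% (21.8 to 22.2) in the control library. The copy differs from MT-ATP6 at 10 of 681 bases, 98.5% identity, and 28.0% of the 75-base pieces of MT-ATP6 occur in it unchanged. An 80-base stretch with 4 of those differences shows how few bases set the rows apart (GRCh38, plus strand, capitals marking the bases that differ).
MT-ATP6, chrM:8639-8718: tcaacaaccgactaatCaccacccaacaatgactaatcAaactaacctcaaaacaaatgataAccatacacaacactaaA
MTATP6P1, chr1:633808-633887: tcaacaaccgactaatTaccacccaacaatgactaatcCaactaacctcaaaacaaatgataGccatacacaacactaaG
With the copy added to it, MT-ATP6 had 132077 counts in the SETDB2 library and 134596 in the control library, a log2 ratio of -0.03 (-0.04 to -0.02) in place of -0.007. The deposited counts do not show from which genome these reads came, so the level of MT-ATP6 is uncertain.

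The count of a copy did not follow how much sequence it shared with its gene. MTND2P28 contained 34.4% of the 75-base pieces of MT-ND2 and took 4.56% of the pair's counts in the SETDB2 library and 5.09% in the control library. MTCO1P12 contained 36.6% of the pieces of MT-CO1 and took 0.0902% in the SETDB2 library and 0.102% in the control library. Both lie on chromosome 1 in the same stretch as MTATP6P1. MTND2P28 had 6369 and 7455 counts in the SETDB2 and control libraries, a log2 ratio of -0.23 (-0.28 to -0.19), and MTCO1P12 had 273 and 336, a ratio of -0.31 (-0.54 to -0.07). Adding the copy to MT-CO1 or MT-ND2 moved neither log2 ratio by more than 0.01.

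Of the 6 copies above the filter, 5 were lower and 1 was higher in the SETDB2 library, and 1 in each direction passed the 2-fold rule. Over all genes the shares past that rule were 0.651% higher and 1.15% lower. MTATP8P1 had 130 counts in the SETDB2 library and 48 in the control library, a log2 ratio of 1.42 (0.94 to 1.94), beside -0.06 for MT-ATP8. It shares 46 bases with MTATP6P1, as their mitochondrial originals do. MTND5P11, a copy of MT-ND5 overlapping PCBD2 on the other strand of chromosome 5 and named after its values were seen, had 23 counts in the SETDB2 library and 92 in the control library, a log2 ratio of -1.98 (-2.73 to -1.33). MTND4P12, in the same place, had 131 and 171 counts in the SETDB2 and control libraries, a ratio of -0.39 (-0.73 to -0.05). These 3 copies held under 1% of the counts of their pairs, and the ratios of MT-ATP8, MT-ND5 and MT-ND4 moved by at most 0.01 when the copy was added.

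Nuclear genes for the same respiratory complexes had higher log2 ratios, SETDB2 over control, than the mitochondrial ones. Of 73 nuclear subunit genes of complexes I, III, IV and V above the filter, 62 were above 0 and 11 below, where 50.6% of all genes kept were above, with a median log2 ratio of 0.13, against 4 above and 9 below for the 13 mitochondrial messengers, with a median of -0.007. None of the 73 passed the 2-fold rule, which 1.8% of all genes did. By the 25% rule 9 were higher and 1 lower, where 7.36% and 10% of all genes were. The 2 sets differ in length, structure and depth, and with 1 library each the gap was not tested.

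**Figure D4:**
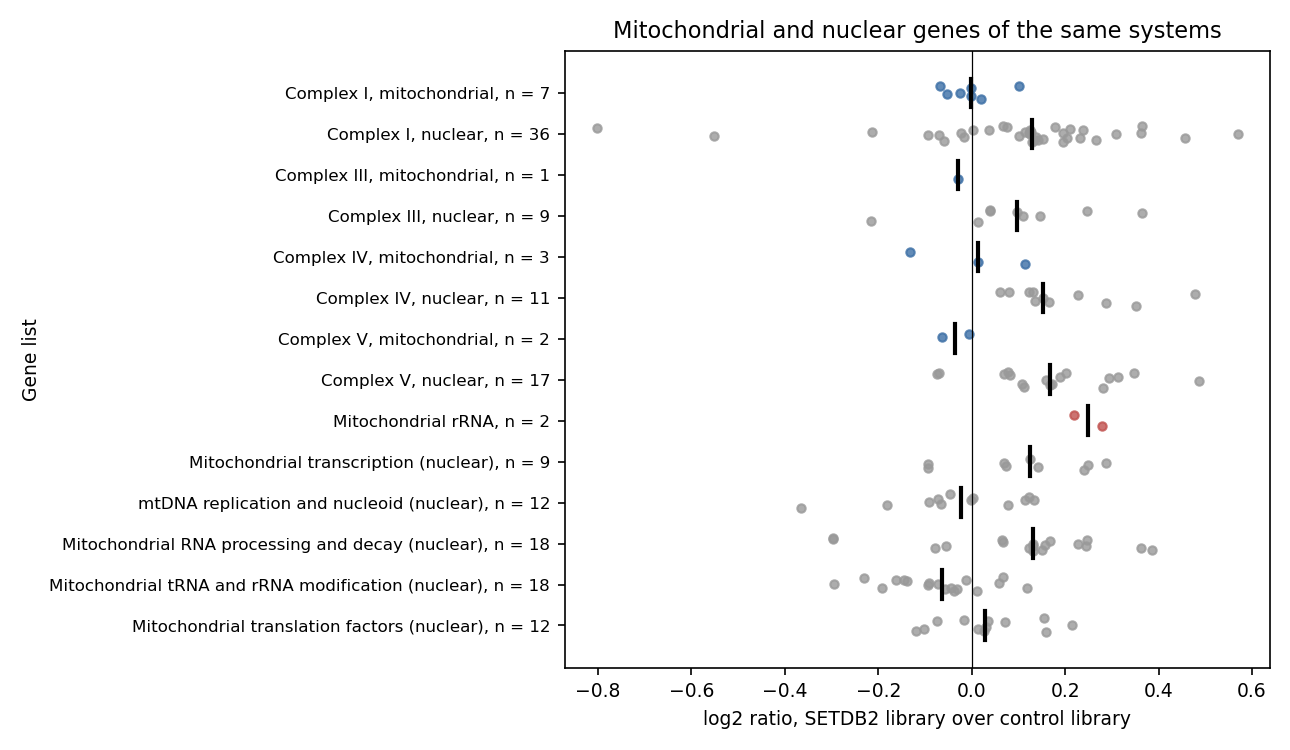
Log2 ratios, SETDB2 over control, of single genes (points), grouped into mitochondrial genes (blue and red) and nuclear genes (grey), with the median of each group as a black bar; points are spread vertically for legibility. In each complex the median of the nuclear subunits, between 0.10 and 0.17, lies to the right of the mitochondrial one, between -0.04 and 0.01.

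In complex I, 28 of 36 nuclear subunits were above 0, with a median log2 ratio of 0.13 beside -0.002 for the mitochondrial ones. NDUFB3, an accessory subunit of the membrane arm, had 1196 counts in the SETDB2 library and 868 in the control library, a ratio of 0.46 (0.33 to 0.58). NDUFC1 had 437 and 293 counts in the SETDB2 and control libraries, a ratio of 0.57 (0.35 to 0.79), and its span overlaps that of MGARP on the same strand. NDUFV2, part of the NADH dehydrogenase module, went the other way with 47 counts in the SETDB2 library and 82 in the control library, a ratio of -0.80 (-1.36 to -0.27). NDUFA13 had 30 and 44 counts in the SETDB2 and control libraries, a ratio of -0.55 (-1.28 to 0.14). Rows of other genes overlap NDUFV2, NDUFA13 and NDUFB3 on the same strand, and their counts are uncertain for that reason.

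Complex III had 8 of 9 nuclear subunits above 0, with a median log2 ratio of 0.10, and UQCR10 was highest at 0.37 (0.24 to 0.49). Cytochrome c1, CYC1, was its one member below 0, with 4571 counts in the SETDB2 library and 5285 in the control library, a ratio of -0.22 (-0.27 to -0.16). All 11 nuclear genes of complex IV were above 0, with a median of 0.15. COX7B led them with 1523 counts in the SETDB2 library and 1088 in the control library, a ratio of 0.48 (0.37 to 0.59). In complex V, 15 of 17 were above 0, with a median of 0.17, or 0.10 with the GC trend removed. ATP5F1E, the epsilon subunit of the catalytic head, had 2937 and 2088 counts in the SETDB2 and control libraries, a ratio of 0.49 (0.40 to 0.57).

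Per kilobase of deposited gene length, mitochondrial messengers stood far above their nuclear partners in both libraries. For a nuclear gene that length can exceed the length of its main messenger, which lowers its level and raises the ratios below. The size of that effect was not tested. In complex IV the mitochondrial median was 5759 CPM per kilobase in the SETDB2 library and 5818 in the control library, against 43.0 and 41.1 for the nuclear genes, a ratio of 134 and 142. In complex I the ratio was 197 in the SETDB2 library and 205 in the control library, in complex V 184 and 178, and in complex III 102 and 119. The highest nuclear subunit, ATP5F1B of the catalytic head of ATP synthase, reached 441 in the SETDB2 library and 396 in the control library, below MT-ATP8 at 1920 and 2027.

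Nuclear genes that express mitochondrial DNA showed no common direction. Of 69 above the filter, 38 were above 0 and 31 below, the median log2 ratio was 0.03, and none passed the 2-fold rule. Among all genes kept 50.6% were above 0 and 1.8% passed that rule. Of the 9 genes listed for mitochondrial transcription 7 were above 0 and 2 below, with a median of 0.13, or 0.07 with the GC trend removed. None of the 9 passed the 25% rule, which 17.4% of all genes did. POLRMT, the RNA polymerase, was among those below 0. It had 4743 counts in the SETDB2 library and 5041 in the control library, a ratio of -0.09 (-0.15 to -0.04). TFAM, which packages mitochondrial DNA and opens its promoters, had 4145 counts in the SETDB2 library and 3474 in the control library, a ratio of 0.25 (0.18 to 0.31). TFB2M, the promoter-melting factor, had 1983 and 1789 counts in the SETDB2 and control libraries, a ratio of 0.14 (0.05 to 0.24), and MTERF3 and MTERF1, of the termination factor family, had ratios of 0.29 (0.20 to 0.37) and 0.24 (0.12 to 0.36).

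RNA processing and decay genes were above 0 in 14 of 18 cases, where 50.6% of all genes kept were. By the 25% rule 2 of the 18 were higher and 0 lower, where 7.36% and 10% of all genes were. The median of the 18 was 0.13, or 0.08 with the GC trend removed. SLIRP, which with LRPPRC binds and stabilises mitochondrial messengers, had 1322 counts in the SETDB2 library and 1024 in the control library, a ratio of 0.36 (0.24 to 0.48). FASTKD5, needed for messengers whose ends are not set by a transfer RNA, had 1070 and 815 counts in the SETDB2 and control libraries, a ratio of 0.39 (0.25 to 0.52), and its span overlaps that of UBOX5 on the same strand. KIAA0391, the protein-only RNase P subunit, had 250 counts in the SETDB2 library and 306 in the control library, a ratio of -0.30 (-0.55 to -0.05), and FASTK had 2616 and 3199, a ratio of -0.30 (-0.37 to -0.22).

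Of the enzymes that modify mitochondrial transfer and ribosomal RNA 4 of 18 were above 0, beside 50.6% of all genes kept. None of these enzymes passed the 25% rule, which 17.4% of all genes did. The median of the 18 was -0.06. NSUN4, which methylates the 12S RNA and helps join the ribosomal subunits, had 1691 counts in the SETDB2 library and 1884 in the control library, a ratio of -0.16 (-0.26 to -0.07). TRMT61B, a methyltransferase that acts on mitochondrial transfer RNA and on the 16S RNA, had 676 and 790 counts in the SETDB2 and control libraries, a ratio of -0.23 (-0.38 to -0.08). QTRT1, GTPBP3 and these 2 were the members farthest from 0, QTRT1 with a ratio of -0.29 (-0.41 to -0.18) and GTPBP3 with -0.19 (-0.31 to -0.08). Genes of mitochondrial DNA replication had 5 of 12 above 0 and a median of -0.02, or -0.004 with the GC trend removed. TK2, the mitochondrial thymidine kinase, was farthest out at -0.37 (-0.55 to -0.18). It was the 1 gene of the 12 past the 25% rule, where 10% of all genes were lower. Translation factors had 8 of 12 above 0 and a median of 0.03 that turned to -0.014 with the GC trend removed, led by TSFM, the exchange factor of elongation factor Tu, at 0.22 (0.07 to 0.36). TK2, TSFM, SLIRP and KIAA0391 overlap other rows on their own strand, so their counts carry the same uncertainty as that of FASTKD5.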

How the data were processed

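The authors deposited 4 tables, with raw read counts and with FPKM values per gene for each of 2 libraries. The submitters' processing notes name TopHat2 2.0.9, Bowtie2 2.0.6, Cuffdiff 2.1.1 and Cufflinks 2.1.1, with no roles. Which program counted reads, whether it used strand and what it did with reads of several places or rows is not given in the sources used here. Deposited FPKM equalled the count divided by gene length and by 1 constant per library, so the counts were used and FPKM served as an alternative. All 37 mitochondrial rows had the start, end and strand of GENCODE 29 on GRCh38.

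Scaling used TMM factors from edgeR 4.0.16 (R 4.3.3), with DESeq2 1.42.0 size factors (1 for both libraries), totals and nuclear totals as alternatives; no test of either program was run. Log2 ratios (SETDB2 over control) used a prior count of 0.5, and intervals are exact Clopper-Pearson at 95%. Genes averaging at least 1 CPM were kept. Reads without molecular identifiers are not independent molecules, so intervals and the limit of 3 counts behind a count of 0 cover counting error only. Calculations were tested on simulated data. GC content came from the longest GENCODE transcript of each gene.

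All 37 members were described; of each nuclear list the 4 kept genes with the largest ratios could be named, and of the nuclear copies the 5 with the most counts. Other genes were chosen after their values were seen: those named in setting out levels, LRPPRC and ELAC2 as background, and MTND5P11 and POLRMT. Members and lists were chosen with earlier results of these data known.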

Additional observations from a re-analysis of the deposited data

How the results depend on the processing

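No paired analysis was possible because each group had 1 library, and for the same reason no library could be left out. DESeq2 size factors (1 for both libraries, hence no scaling), library totals, nuclear totals and a prior count of 2 moved the 16 member ratios by -0.015 to 0.007. Removal of the GC trend moved them by -0.14 to -0.009, the protein-coding median to -0.054 and the ribosomal median to 0.21. Signs turned for MT-CO2, MT-ND3, MT-ND4, MT-ND6 and MT-ATP6, all within 0.07 of 0. No member passed either size rule under any scaling or filter tried. Over all genes the 2-fold rule took 255, or 1922 with no filter and 23 at a mean of at least 10 CPM; the 25% rule took 2458, or 4202 and 989. The mitochondrial share became 5.10% (SETDB2) and 5.17% (control) with the nuclear copies, and 4.58% and 4.71% with protein-coding members alone. Taken per kilobase, class shares in the SETDB2 and control libraries were 70.5% and 74.6% protein-coding, 29.4% and 25.3% ribosomal, and 0.146% and 0.135% transfer RNA. The minus-strand share was 1.59% and 1.56% of protein-coding counts. Of transfer RNA counts it was 99.5% and 100%, all from MT-TP, and the strand setting of the counting is not stated. With the deposited FPKM, the median level was 3786 and 3945. The median of translation factors turned to -0.014 without the GC trend. MTATP6P1 and MTND2P28 moved to -0.18 and -0.29 in that setting. Counting error is widest for MT-TP and the copies with few counts; variation between cultures was not measured.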
